A study of Arabidopsis thaliana with 4 samples.

Results

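Some transcripts in KUA1-IOX seedlings separated the 4 arrays of the estradiol experiment crosswise, with 1 mock and 1 estradiol sample on each side. These probe sets were chosen by their signals on the arrays. The mean signal over the 4 arrays had to be at least 50, the control probe sets were left out, and either the lower of mock replicate 1 and estradiol replicate 2 had to be at least 1.5 times the higher of mock replicate 2 and estradiol replicate 1, or the reverse. Of 22746 probe sets, 10025 had such a mean signal and 12721 did not. The rule was met by 163, which is 1.63% of the 10025. The larger group, of 94 probe sets (0.938%), was high in mock replicate 2 and estradiol replicate 1, and 69 (0.688%) were high in mock replicate 1 and estradiol replicate 2. The arrays are called mock 1, mock 2, estradiol 1 and estradiol 2 from here on.

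KUA1 (AT5G47390) encodes a MYB-like transcription factor. The KUA1-IOX line, in the Col-0 ecotype, carries an estradiol-inducible system in which the constitutively made activator XVE enters the nucleus once estradiol is present and transcribes KUA1 from a LexA promoter. Stable T3 seedlings, 14 days old, received 15 µM estradiol or the ethanol solvent (mock) for 4 h. RNA of 2 biological replicates per treatment was hybridized to Affymetrix ATH1 arrays, 1 array per replicate. All 4 samples are whole seedlings of the inducible line by their titles and the study's methods, although another label field gives the mock genotype only as control. No estradiol-treated line without the construct is among the arrays. The labels name no growth batch, time of harvest or hybridization date, so the crossed separation cannot be assigned to any of them. In whole seedlings, fewer cells of a type and less RNA per cell cannot be told apart.

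Plant seedlings carry large families of secreted proteins at their surface and in their cell walls, among them lipid transfer proteins, GDSL lipases, defensin-like peptides, pectin-modifying enzymes and peroxidases. Many transcripts of such families, and those of cold, drought and heat responses, are known to respond to temperature, humidity, handling and time of day. Sugar and nitrogen status is read by kinases of the SnRK1 family and is followed by changes in genes of amino acid use and protein turnover. These are general properties of plants and no account of the values given here.

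The signal of KUA1 followed the labels. It was 203 and 170.2 in mock 1 and mock 2, against 1887 and 3373 in estradiol 1 and estradiol 2. Within each treatment KUA1 was higher in mock 1 and in estradiol 2. For these arrays minus mock 2 and estradiol 1 the log2 difference was 0.55. The log2 difference of estradiol minus mock was 3.76 ± 0.29 (SE, n = 2 per group), with an adjusted p of 0.158 by limma over the 22746 probe sets. Of 3 root markers with a named probe set 1 was bright, and of the green tissue markers 2 were found and both were bright. Signals of PYK10, a root beta-glucosidase, were 1994, 2446, 1861 and 1906 in mock 1, mock 2, estradiol 1 and estradiol 2. The root hair expansins EXPA7 and EXPA18 were below the mean signal of 50, at 35.1, 55.2, 27.7 and 22.9 and at 27.7, 46.9, 12.8 and 13.8. Signals of RCA, the Rubisco activase of green tissue, were 2622, 2693, 2298 and 2624. Neither PYK10 nor RCA separated the arrays crosswise.

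The crossed rule does not allow a member to separate by treatment, because each treatment has an array on both sides. Mock and estradiol signals therefore overlapped in all 163 members, and the counts in this paragraph describe the choice of members and test nothing. Turned to the treatment, the same rule was met by 96 probe sets with both estradiol arrays above both mock arrays (0.958%) and by 79 with both below (0.788%), and 0 of these 175 were among the 163. Estradiol against mock gave no call by limma, with 0 probe sets higher and 0 lower once p-values were adjusted to a limit of 0.05 (0%), while 1481 of the 22746 had an unadjusted p under 0.05 (6.51%), among them 929 of the 10025 (9.27%). With the crossed pairs as a block, an alternative chosen after seeing the data, 3 were called higher and 0 lower. Among the members, 0 had such an unadjusted p, and the lowest adjusted p was 0.942 in the group high in mock 1 and estradiol 2 and 0.936 in the other. The median size of the treatment difference, without its sign, was 0.14 on the log2 scale in the members and 0.16 in all 10025 probe sets.

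**Figure D1:**
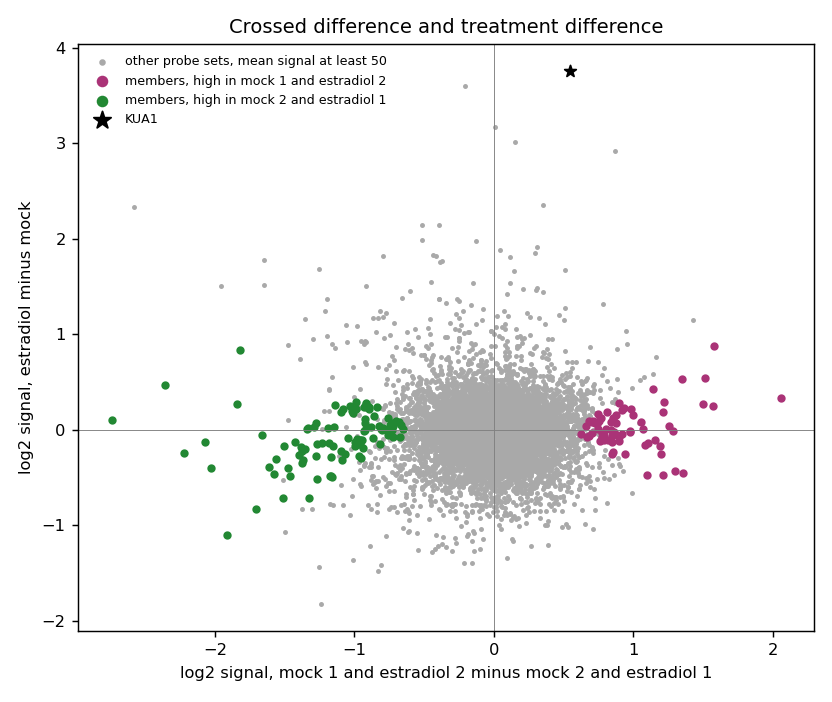
Each point is 1 of the 10025 probe sets of mean signal at least 50, with the crossed log2 difference (mock 1 and estradiol 2 minus mock 2 and estradiol 1) on the horizontal axis and the log2 difference of estradiol minus mock on the vertical axis. The 69 members at the right and the 94 at the left lie between -1.10 and 0.88 on the vertical axis, and KUA1 lies at the top at 3.76.

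The 2 directions differed in brightness. The 69 probe sets high in mock 1 and estradiol 2 had a median mean signal of 246, with a range of 50.1 to 1312, and 13 of them reached 500. The 94 in the other direction had a median of 98.9, with a range of 50.7 to 872, and 3 reached 500. The median over all 10025 probe sets was 136.5, so the members of the first direction were brighter than the typical probe set and those of the second dimmer. The difference in size ran the other way. The fold between the geometric means of the high and the low pair had a median of 1.83 in the first direction and of 2.08 in the second, and it was at least 2 in 23 of 69 and 51 of 94 probe sets. The direction with the larger folds was thus also the dimmer one, and folds at low signal are uncertain. With 32 added to each signal, 40 probe sets of the first direction and 44 of the second met the rule. The balance of the directions also depended on the scaling of the arrays, since 101 and 67 probe sets met the rule when each array was divided by its median in place of the deposited scaling.

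Within the high pair the arrays were closer in the first direction. Median signals of the 69 probe sets were 306 in mock 1 and 368 in estradiol 2, and 172 in mock 2 and 179.9 in estradiol 1. Estradiol 2 was above mock 1 in 43 of them and below in 26, and a factor of 1.5 between them was reached in 1 probe set each way. The 94 probe sets had median signals of 154 in mock 2 and 132 in estradiol 1, and of 63.6 in mock 1 and 61.7 in estradiol 2. Mock 2 was above estradiol 1 in 52 and below in 42, and was at least 1.5 times estradiol 1 in 14, against 3 with the opposite order. The treatment difference ranged from -0.47 to 0.88 on the log2 scale in the first direction, with 36 probe sets above 0 and 33 below, and from -1.10 to 0.83 in the second, with 41 above and 53 below.

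**Figure D2:**
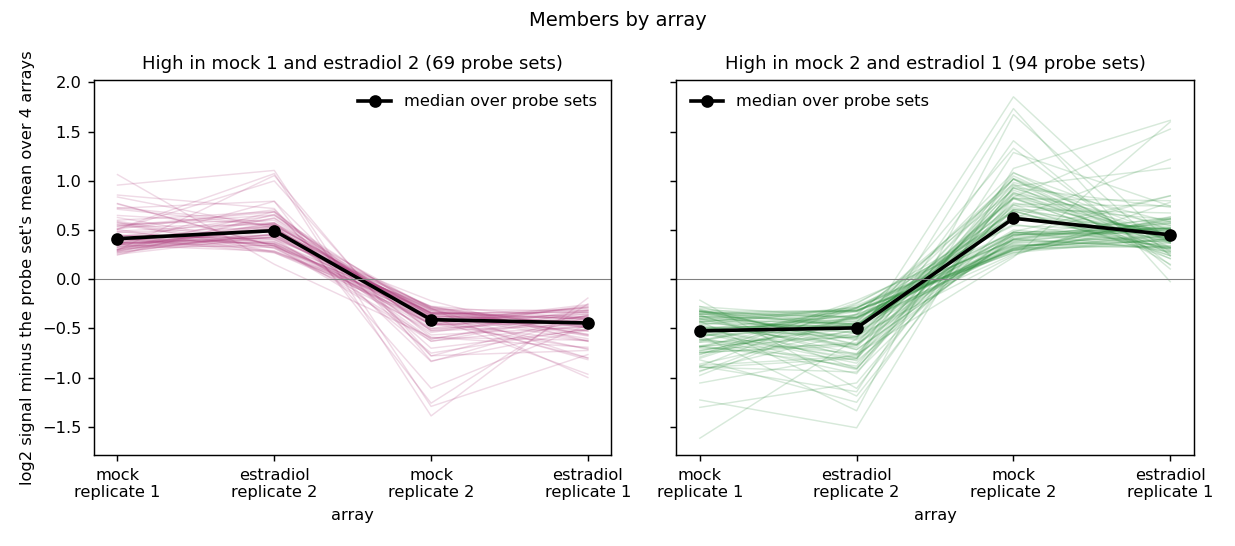
Thin lines give the log2 signal of each member minus its own mean over the 4 arrays, and the black line gives the median over the members. The 69 probe sets of the left panel were high in mock 1 and estradiol 2, and the 94 of the right panel in mock 2 and estradiol 1, as the rule requires.

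Genes were named where the platform table gives a probe set a single gene, which it did for 27 of the 69 and 52 of the 94. Another 8 members, all high in mock 2 and estradiol 1, matched several genes each and are not named. The table does not list 42 members of the first direction and 34 of the second. The brightest member of all, an unlisted probe set, had 1715 in mock 1 and 1779 in estradiol 2 against 796 in mock 2 and 957 in estradiol 1. In the first direction 4 of the 5 brightest probe sets are unlisted, and in the second 1 is unlisted and 2 match several genes. Named genes thus stand for 79 of 163 members, and the groups by function below were made after the values were seen and carry no test.

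The widest separation among the genes high in mock 1 and estradiol 2 was that of AT4G37220, a member of the cold acclimation WCOR413 family. Its signals were 364 and 404 in mock 1 and estradiol 2, and 76.5 and 110.3 in mock 2 and estradiol 1, a 4.17-fold difference of geometric means. The 2 high arrays lay close together and far above the low pair. Signals of the other genes of this direction follow in the same order, mock 1 and estradiol 2 against mock 2 and estradiol 1. PAP85 (AT3G22640), a vicilin-like seed storage protein, was dimmer, at 86.8 and 78.9 against 22.3 and 34.8. The low pair of PAP85 lay below a signal of 50 and its high pair above it.

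Nitrogen and amino acid use was represented by ASPGB1 (AT3G16150), an asparaginase that releases ammonium from asparagine. ASPGB1 had 303 in mock 1 and 447 in estradiol 2, against 81.1 in mock 2 and 186 in estradiol 1. Each estradiol array was above the mock array on its side, and the log2 difference of estradiol minus mock, 0.88, was the largest of the 69, while the mock and estradiol ranges still overlapped. AT2G40420, of an amino acid transporter family, had 495 and 484 against 250.0 and 293. Here the arrays within each pair were nearly level. AKINBETA1 (AT5G21170), a regulatory beta subunit of the SnRK1 kinase, had 745 and 829 against 441 and 496. It was the member nearest to the threshold in this direction.

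Hormone and signalling genes of the same direction included GH3.5 (AT4G27260), an enzyme that conjugates auxin to amino acids, at 284 and 266 in mock 1 and estradiol 2. Its signals in mock 2 and estradiol 1 were 138 and 104, a 2.30-fold difference. AT5G66650, of the MCU family of calcium channels, was 243 and 410.3 against 111 and 138. For AT5G66650 the 2 high arrays were themselves far apart, with estradiol 2 well above mock 1. ATL8 (AT1G76410), of a family of RING-type ubiquitin ligases, had 656 and 785 against 414 and 388. AT5G04390, a C2H2 zinc finger protein, was dim, at 80.6 and 66.6 against 34.3 and 40.4. ATL8 was thus among the bright members and AT5G04390 among those near the minimum.

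Enzymes made up much of the remainder. AT2G32150, of the haloacid dehalogenase-like hydrolases, was the brightest named gene of the direction at 1142 and 1338 against 744 and 719. AT1G66180, an aspartyl protease, had 667 and 804 against 391 and 405. In both genes estradiol 2 was the highest array and the low pair was level. AT1G64500, of the glutaredoxin family, had 154 and 124 against 65.9 and 44.1. AT4G24050, a short-chain dehydrogenase, had 113 and 94.7 against 55.2 and 56.2. Both were higher in mock 1 than in estradiol 2, the opposite order within the high pair.

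Other named genes of this direction were AT1G05340, a small cysteine-rich transmembrane protein, at 539 and 399 against 205 and 228. AT3G06780, a glycine-rich protein, had 352 and 337 against 202 and 200.2. The arrays within each of its pairs were nearly level. MTP11 (AT2G39450), a manganese transporter, had 267 and 303 against 176 and 177. AT1G50040, AT2G35170 and AT3G56290, which are given without a role, had folds of 2.32, 2.85 and 1.81. The lowest fold among the 27 genes was 1.55, at AT5G63190, a protein with MA3 domains.

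Among the remaining genes of this direction, AT1G55960, a START-domain lipid-binding protein, had 221 and 188 against 116 and 96.5. AT5G08350, a GRAM-domain protein, had 452 and 516 against 296 and 287. Mock 1 was the highest array for AT1G55960 and estradiol 2 for AT5G08350. AT1G44770, given without a role, had 392 and 382 against 243 and 214. AT1G19140, AT1G19540 and AT2G20920 had folds of 1.67, 1.67 and 1.80.

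A single chloroplast-encoded gene was a member. psbD, for the D2 protein of photosystem II, had 121 and 126 against 71.9 and 79.2. Of 69 chloroplast-encoded probe sets, a group formed after the members were seen, 40 reached the mean signal of 50, and their crossed log2 difference ranged from -0.93 at rpoA to 0.71 at psbD, with a median of -0.02 beside 0.01 over all 10025 probe sets. The gene next to psbD in size was psbC, which lies in the same operon and had 243 and 276 in mock 1 and estradiol 2 against 173 and 173 in mock 2 and estradiol 1, a log2 difference of 0.58 that did not reach the ratio of 1.5. The chloroplast-encoded probe sets thus lay on both sides of 0.

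**Figure D3:**
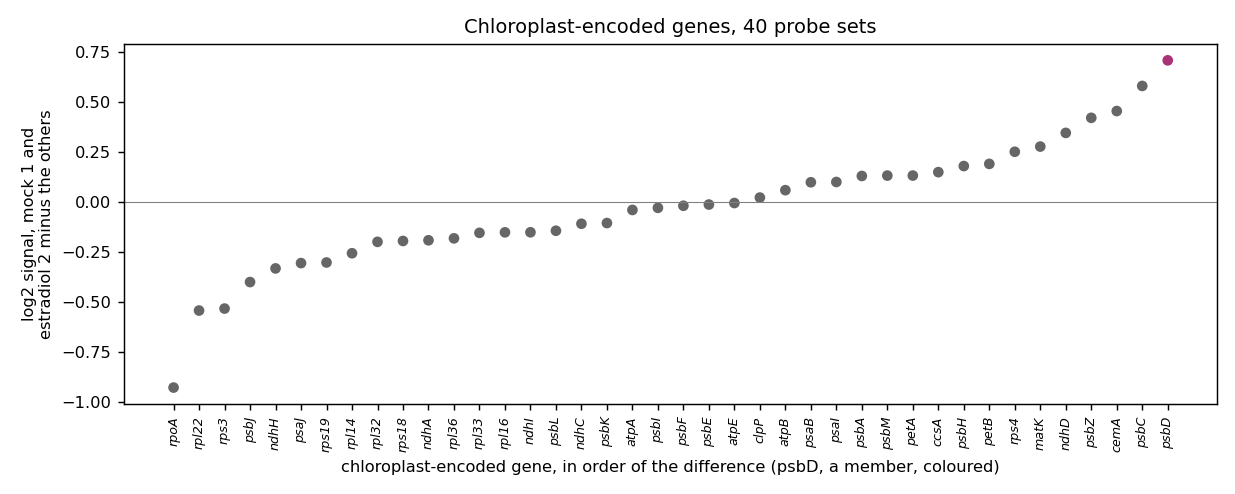
Each point is 1 of the 40 chloroplast-encoded probe sets of mean signal at least 50, ordered by the crossed log2 difference on the vertical axis (mock 1 and estradiol 2 minus mock 2 and estradiol 1). psbD, the member, is at the right end at 0.71 and psbC next to it at 0.58, while rpoA lies at -0.93.

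In the direction high in mock 2 and estradiol 1, a wide separation was that of AT4G30650, of a family of small membrane proteins induced by low temperature and salt. Its signals were 83.6 and 117 in mock 2 and estradiol 1, and 16.4 and 13.4 in mock 1 and estradiol 2. The low pair was dim and no detection calls are used, so the size of the difference is uncertain. The log2 difference was 2.74 on the deposited signals and 1.49 with 32 added to each, where AT4G37220 had 1.74 and the defensin-like AT4G22212 had 1.49. Signals of the further members of this direction are given as mock 2 and estradiol 1 against mock 1 and estradiol 2. AT4G37220, of another cold-related family, belonged to the first direction, so genes named for cold stood on both sides. DI21 (AT4G15910), named as drought-induced, had 336 and 346 in mock 2 and estradiol 1 against 149.8 and 197. COR15A, a cold- and drought-induced protein that was no member, had 6.19, 30.1, 188 and 25.5 in mock 1, mock 2, estradiol 1 and estradiol 2, so that estradiol 1 alone was high. Further genes of the water deficit, cold and abscisic acid list were no members and followed no single order. In the same array order LTI30 had 125, 202, 423 and 398, COR15B 69.8, 89.9, 199.9 and 110.1, and COR47 920, 759, 835 and 924.

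Heat-related chaperones of this direction were 2 small heat shock proteins and a co-chaperone. AT1G53540 had 147 and 144 in mock 2 and estradiol 1 against 62.6 and 49.9 in mock 1 and estradiol 2. AT1G54050 had 100.3 and 101 against 53.4 and 52.2, with nearly equal arrays in each pair. ROF2 (AT5G48570), a peptidyl-prolyl isomerase of heat acclimation, had 185 and 168 against 69.0 and 98.5. In a list of small heat shock proteins drawn up after the members were seen, 9 were on the named probe sets and 5 reached the mean signal of 50. Of these, 2 were members, beside 1.63% of all 10025 probe sets. The median crossed log2 difference was -0.52, beside 0.01 over all 10025. The members seen beforehand enter both values, so neither tests the family. Another small heat shock protein, AT2G29500, had 203, 261 and 244 in mock 2, estradiol 1 and estradiol 2 against 106 in mock 1, so that mock 1 alone was low. A crossed separation was therefore not shared by all small heat shock proteins that were measured.

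GDSL lipases, secreted esterases of plant surfaces, contributed 3 genes. For this family and for the lipid transfer-type proteins, defensin-like peptides and peroxidases below, the full number of measured genes was not determined. The numbers of members therefore do not show that a family was over-represented. AT3G16370 had 721 and 465 in mock 2 and estradiol 1 against 212 and 228 in mock 1 and estradiol 2. AT1G29660 had 222 and 134 against 65.7 and 67.8. AT5G45950 had 106 and 84.5 against 34.5 and 36.2. In all 3 mock 2 was the highest array and the low pair was nearly level.

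Lipid transfer-type proteins, small secreted proteins that bind lipids, contributed 4 genes. AT2G10940 was the brightest named gene of the direction, with 1427 and 947 against 539 and 573. AT3G18280 had 247 and 251 against 125 and 137. Both had a nearly level low pair. AT2G18370 was dimmer, at 95.0 and 87.8 against 33.3 and 51.8, and AT3G58550 had a fold of 2.04. CER26 (AT4G13840), which acts in the elongation of cuticular wax chains, had 123 and 84.1 against 51.8 and 52.2. AT5G23830, of the ML-domain lipid recognition proteins, had 173 and 124 against 59.7 and 54.1. Mock 2 exceeded estradiol 1 in these last 2 genes and in AT2G10940, and the pair was level in AT3G18280.

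Defensin-like peptides, secreted cysteine-rich proteins, contributed 3 genes. AT4G22212 had 367 in mock 2 and 136 in estradiol 1 against 77.6 in mock 1 and 45.6 in estradiol 2. Its log2 difference of estradiol minus mock, -1.10, was the lowest of the 94, since the mock array was the higher on each side, and the 2 high arrays differed more from each other than estradiol 1 did from mock 1. AT2G43550 had 169.7 and 124 against 59.7 and 68.1. AT2G43535 had 358 and 389 against 177 and 227. These last genes lie 2 genes apart in the RefSeq order and were the only pair of named members within 10 genes of each other, and cross-hybridization between such related sequences was not tested. AT4G33720, of the pathogenesis-related PR-1-like secreted proteins, had 608 and 639 against 389 and 399.

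Cell wall enzymes and peroxidases followed. AT5G62360, of the pectin methylesterase inhibitor family, had 338 and 226 in mock 2 and estradiol 1 against 105 and 82.3. AT3G62110, a pectin lyase-like protein, had 94.9 and 62.6 against 38.9 and 30.3. In both, the mock array was the higher on each side. Class III peroxidases use hydrogen peroxide and act in the cell wall. AT4G30170 had 178 and 161 against 81.0 and 71.2, and AT4G11290 had a fold of 1.97. For peroxidases, whose response to KUA1 was a question of the study, mock and estradiol overlapped in these 2 genes by the rule.

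Sulfur metabolism and detoxification were represented by single genes. BCAT4 (AT3G19710), the aminotransferase that starts the chain elongation of methionine for glucosinolates, had 234 and 169 against 99.8 and 68.3. APS3 (AT4G14680), an ATP sulfurylase of sulfate assimilation, had 79.5 and 96.3 against 44.5 and 49.9. BCAT4 was higher in mock 2 than in estradiol 1, and APS3 had the opposite order. GSTU20 (AT1G78370), a glutathione S-transferase of the tau class, had 255 and 147 against 66.0 and 84.4. The other 3 GSTU genes that were matched by symbol and had a mean signal of at least 50 were no members. Their crossed log2 differences ran from -0.37 at GSTU18 to 0.13 at GSTU16, against -1.37 at GSTU20. Further genes of the family had no matched probe set and were not read. Below that minimum, GSTU25 and GSTU26 had the order of GSTU20, with differences of -2.36 and -1.12. The dim GSTU15 and GSTU28 had the opposite sign, at 1.12 and 0.35.

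Signalling genes of this direction included AT2G41090, a calmodulin-like calcium sensor, at 132 and 130.3 against 51.5 and 41.5. Its pairs were clearly apart, the lower of the high pair being 2.53 times the higher of the low pair. PTI1-4 (AT2G47060), a protein kinase, had 78.1 and 99.8 against 49.6 and 47.7. AT1G04040, of an acid phosphatase family, had 188 and 161 against 69.8 and 83.8. AT1G67865, given without a role, had 377 and 409 against 180.2 and 212. The folds of all 4 lay between 1.82 and 2.84.

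The remaining genes of the direction were mostly dim. AT4G15390, an acyltransferase of the HXXXD type, had 148 and 103 against 67.3 and 36.1. AT2G21045, an arsenate reductase, had 238 and 142 against 88.9 and 75.8. In both, the mock array was the higher on each side. AT1G72810, a threonine synthase, had 74.5 and 78.2 against 44.0 and 34.5. AT1G62820, a calcium-binding EF-hand protein, had 129 and 138 against 76.8 and 62.5. In these, estradiol 1 was the highest array and estradiol 2 the lowest. AT1G22270, a Trm112-like protein, had 252 and 214 against 114 and 139. AT5G22580 and AT3G45160, given without a role, had folds of 2.53 and 2.45. AT2G19680, a subunit of the mitochondrial ATP synthase, had the arrays of each pair nearly level, at 175 and 193 against 113 and 116.

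**Figure D4:**
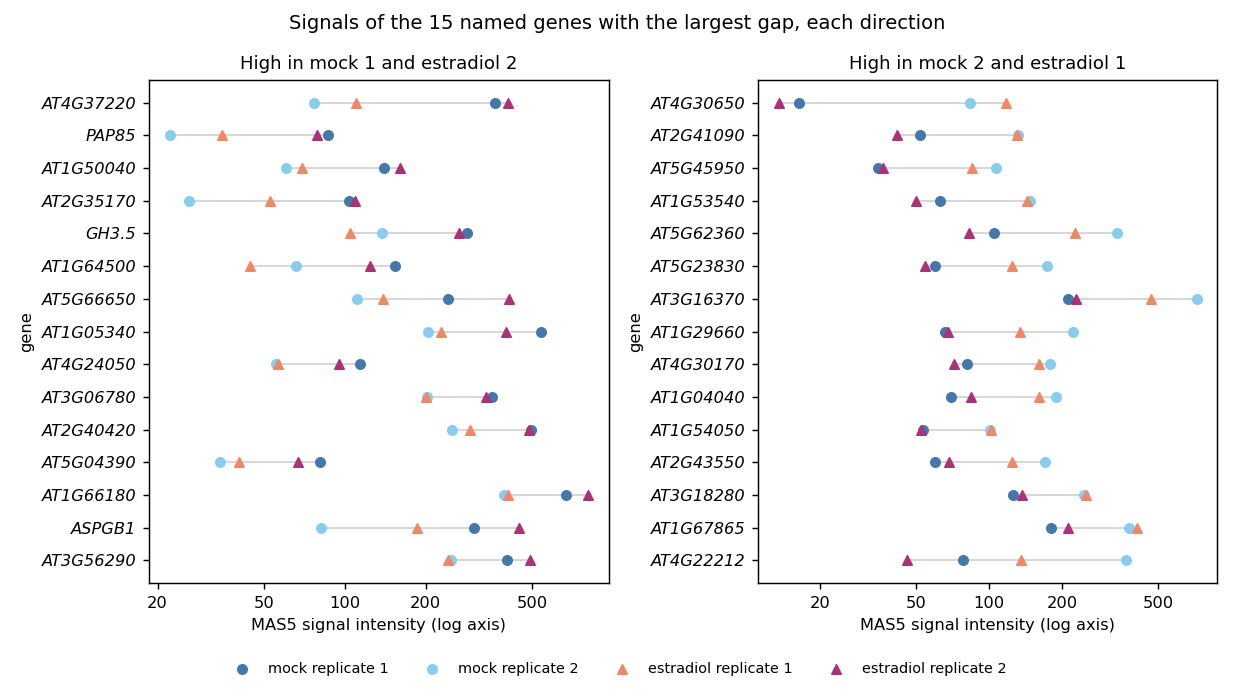
Signals (log axis) of the 15 named genes with the widest gap in each direction, 1 point per array, circles for mock and triangles for estradiol. A circle and a triangle lie on each side of the gap in every row, so that mock and estradiol overlap in each gene.

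The 33 gene lists of pathways and cell types, which leave out the 2 groups formed after the members were seen, were matched mostly by gene symbol and so missed genes that the table names by locus alone. The peroxidases and lipid transfer-type proteins described above were missed in this way, PAP85 was not on the list of seed storage genes, and a 0 for a list is not a count of its biology. By these matches 12 lists had no probe set of mean signal 50, and 6 held 1 member each, namely AKINBETA1, GH3.5, BCAT4, ROF2, APS3 and GSTU20. At least 5 such probe sets were matched in 2 lists. The 5 of light harvesting and photosystems held 0 members, with a median crossed log2 difference of 0.02, and the 8 of the expansins and XTH genes, which loosen and remodel the cell wall, held 0 with a median of -0.10. With 1.63% of all 10025 probe sets meeting the rule, a count of 0 in lists of this size says nothing about them. Clock genes could hardly be read, since 1 of the 34 listed, GIGANTEA (GI), was found with a named probe set. GI had 210.1 and 235 in mock 1 and estradiol 2 against 164 and 152 in mock 2 and estradiol 1, in the order of the first direction but short of the ratio of 1.5. The 4 histone H2B genes matched by symbol were HTB1, HTB2, HTB4 and HTB11. Their crossed log2 differences were -0.29 to -0.67, and they were no members either.

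Near the threshold, the 3 genes of the first direction just inside were AKINBETA1, MTP11 and AT5G63190, with ratios of 1.501, 1.506 and 1.506. Just outside lay MCCB, a carboxylase subunit of leucine breakdown, at 1.4998, AT5G66240 at 1.496 and AT5G23340 at 1.478. In the second direction the 3 just inside had ratios of 1.504, 1.505 and 1.507, the last being AT2G19680, and the 3 just outside, all unlisted, had 1.499, 1.492 and 1.490. The ratios ran on across 1.5 without a gap in both directions.

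Array-wide values moved with the crossed separation in part. The median signal of an array was 36.2 in mock 1 and in estradiol 2, and 38.9 and 37.5 in mock 2 and estradiol 1. Of the 6 ratios of 3′ to 5′ control signals, a measure of RNA integrity, 4 separated the arrays in the same crosswise way. Of these, 3 were lower and 1 was higher in mock 1 and estradiol 2. Values of 4 arrays in random order often split crosswise, and some ratios share a control gene, so this count tests nothing. The actin ratio, with the widest split, was 6.87 and 6.08 in mock 1 and estradiol 2 against 8.10 and 8.19 in mock 2 and estradiol 1. In the same order, the GAPDH ratio split narrowly, at 1.073 and 0.931 against 1.082 and 1.162. The second GAPDH set split the other way by a hair, at 0.9586 and 0.9245 against 0.9241 and 0.8222. The second actin set did not split, at 1.787 and 1.930 against 2.009 and 1.815. The 25S rRNA control had 169, 260.2, 188 and 550.4 in mock 1, mock 2, estradiol 1 and estradiol 2, and did not. Over the 10025 probe sets, log2 signals correlated most closely between mock 1 and estradiol 2 (Pearson's r = 0.964, across probe sets). The r was 0.957 between the mock arrays, 0.955 between the estradiol arrays and 0.945 between mock 2 and estradiol 1. It was lowest between same-numbered arrays, at 0.939 for replicate 1 and 0.940 for replicate 2. Mock 2 and estradiol 1 thus correlated less closely than the arrays of either treatment did with each other. The part of these values in the crossed separation was not tested.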

How the data were processed

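RNA of KUA1-IOX seedlings was measured on 4 Affymetrix ATH1 arrays, 2 per treatment. The authors deposited 1 linear intensity per probe set, summarised by MAS5 and scaled so that the mean without the lowest and highest 2% of an array is 100.0. Its version is not given in the sources. No detection calls are used, the depth has no meaning for arrays, and their number limits the precision.

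Control probe sets (64 of 22810) were left out. A linear model per probe set on log2 signals, with moderated variances that follow the intensity and no term for the replicate, was fitted by limma 3.58.1 (R 4.3.3), followed by Benjamini-Hochberg adjustment over all 22746. The p-values reflect only the spread between these samples. The script was tested on simulated data. Members and gene lists were chosen with earlier results of these data known, and symbol matches to 4 genes of another function were left out of the lists.

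Names come from the platform table, which gives 13513 probe sets a single gene, 503 several genes and 8730 none, and from the RefSeq gene table of assembly TAIR10.1, used for names and neighbours only. By rule the text names, in each direction, the 15 members with 1 gene and the widest gap, the 5 brightest, the 3 nearest to the threshold on each side, and members of any list with at least 2, plus KUA1. Probe sets without a single listed gene are not named. Genes outside this rule were chosen after their values were seen. Promoter motifs were not analysed here. Alternatives were other ratios and signal minima, quantile and median scaling, 32 added to each signal, limma without the trend or with a block, the methods' t-test, and each array left out.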

Additional observations from a re-analysis of the deposited data

How the results depend on the processing

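The members follow the thresholds of the rule. Of the probe sets high in mock 1 and estradiol 2, 7 of the 69 remained at a ratio of 2 and 40 with 32 added to each signal, while 314 had pairs at least 25% apart and 483 met the rule without a signal minimum. In the other direction 17 of the 94 remained at a ratio of 2, 44 with 32 added and 47 at a mean signal of at least 100, while 332 had pairs at least 25% apart and 515 met the rule without a minimum. With quantile normalization 68 and 90 met the rule, 64 and 87 of them shared with the members, and with each array divided by its median 101 and 67. The rule is looser on 3 arrays, so leaving out each array in turn, an alternative chosen after seeing the data, gave 151 to 256 and 258 to 338. Turned to the treatment, the rule was met by 175 probe sets, by 40 at a ratio of 2 and by 417 to 610 with 1 array left out.

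The median treatment difference of the members, 0.01 and -0.07 on the log2 scale, took the sign that the missing array sets, and ran from -0.42 to 0.47 and from -0.56 to 0.46 with each array left out. Without mock 1 or estradiol 1 it was 0.40 or 0.47 in the first direction and -0.54 or -0.56 in the second, and without mock 2 or estradiol 2 it had the opposite signs. The crossed differences of the 40 probe sets fixed by the naming rule kept their direction under all 3 rescalings tried, which tests nothing. Adding 32 cannot change the order of the arrays. Median scaling and quantile normalization moved no difference by more than 0.078 and 0.065 on the log2 scale, less than the gap that the rule requires. Of 120 values, 28 moved by more than the spread within the crossed pairs, 20 of them with 32 added. That spread is between a mock and an estradiol array on the same side, not between replicates of a treatment.

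For estradiol against mock, limma called 0 probe sets in either direction with each array left out, without the trend, after quantile normalization, with 32 added, and over mean signals of at least 50 alone. The methods' t-test with a 2-fold change passed 143 higher and 120 lower without adjustment, and 0 after Benjamini-Hochberg adjustment. Of those passed without adjustment 0 were members, which the choice of members fixed in advance, since their mock and estradiol signals overlap. Same-numbered arrays deviated in opposite directions (r = -0.35 across 10025 probe sets), as in the crossed separation. Whether the same number stands for samples grown or treated together is not given by the labels. With the replicate number as a block limma called 0 higher and 0 lower, the unadjusted count fell from 1481 to 1044, and the medians stayed at 0.01 and -0.07. With the crossed pairs as a block, chosen after seeing the data, 3 probe sets were called higher and 0 lower.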
